A study of Mus musculus with 6 samples.

Results

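Interferon-stimulated genes were examined in the colon of mice that gained much weight (obesity-prone, OP) or little weight (obesity-resistant, OR) on a high-fat diet. The set was given as 41 gene symbols and was applied by taking the rows of the deposited expression table with these symbols. A row was found for 39 of the 41 genes among the 17778 genes listed, and *Mx1* and *Mx2* were not analysed here. All mice were male C57BL/6J mice with the wild-type genotype, fed a high-fat diet (60% fat) for 16 weeks and examined at 21 weeks of age. Of 42 mice on the diet, OP mice came from the 10 with the greatest weight gain and OR mice from the 10 with the smallest, so the groups differ by weight gain on a shared diet. Colon libraries were sequenced from 3 mice of each group, and no mice on a normal diet are among the libraries. A piece of colon holds epithelium, immune cells, vessels, connective tissue and muscle, and OP and OR mice were chosen by an outcome that is not a single genetic or drug perturbation.

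Interferons are cytokines that signal through cell surface receptors and JAK kinases to STAT and IRF transcription factors. These factors switch on a shared programme of genes that detect viral nucleic acid, block viral replication, attack intracellular microbes and raise antigen presentation by MHC class I. In the gut, epithelial cells respond more to type III than to type I interferon, and immune and stromal cells respond to type I and type II interferon. Commensal microbes keep a low tonic level of the programme in the absence of infection. STAT and IRF complexes of type I and type III interferon bind the interferon-stimulated response element (ISRE), and STAT dimers of type II interferon bind the gamma-activated site (GAS).

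The promoters of 5 members are shown because their letters mark the 2 routes into the programme, and because *Isg15* is among the members with the widest range between mice, *Bst2* was lower and *Irf1* higher in every OP mouse. Each stretch is the 150 bases just before the annotated transcription start, 5′ to 3′ on the strand of the gene. The bases are from RefSeq on GRCm38.p6, an older build than the GRCm39 named in the methods of the study. Capitals mark the ISRE core, GAAA followed by any 2 bases and a second GAAA, on either strand in *Isg15*, *Ifit1*, *Bst2* and *Igtp*, and the GAS letters TTCNNNGAA, which read the same on both strands, in *Bst2*, *Igtp* and *Irf1*.
Isg15 (chr4:156200819-156200968, minus strand): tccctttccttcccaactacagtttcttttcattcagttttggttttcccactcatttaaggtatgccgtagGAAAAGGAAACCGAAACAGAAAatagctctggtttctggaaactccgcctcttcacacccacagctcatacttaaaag
Ifit1 (chr19:34640739-34640888, plus strand): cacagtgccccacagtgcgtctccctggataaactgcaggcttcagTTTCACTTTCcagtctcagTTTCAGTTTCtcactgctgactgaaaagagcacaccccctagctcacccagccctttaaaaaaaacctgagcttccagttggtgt
Bst2 (chr8:71537473-71537622, minus strand): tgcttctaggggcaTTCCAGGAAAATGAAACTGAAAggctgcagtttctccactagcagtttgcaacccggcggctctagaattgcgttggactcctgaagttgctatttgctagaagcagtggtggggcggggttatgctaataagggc
Igtp (chr11:58199406-58199555, plus strand): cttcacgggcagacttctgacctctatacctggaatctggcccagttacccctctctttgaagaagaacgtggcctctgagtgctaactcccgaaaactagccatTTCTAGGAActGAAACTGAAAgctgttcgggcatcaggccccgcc
Irf1 (chr11:53769864-53770013, plus strand): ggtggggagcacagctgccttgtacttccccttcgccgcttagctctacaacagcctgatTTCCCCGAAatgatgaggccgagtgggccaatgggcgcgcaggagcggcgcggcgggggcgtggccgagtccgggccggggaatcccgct

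Promoter windows of 300 bases, from 250 before to 50 after the start, were found in RefSeq for 30 of the 41 members; the others were *Usp18*, *Dhx58*, *Oas2*, *Mx1*, *Mx2*, *Rtp4*, *Ifi27*, *Iigp1*, *Tap2*, *Zbp1* and *Parp14*. The ISRE core was present in the windows of 17 of these 30 genes (56.7%) and in those of 1079 of 27025 genes overall (3.99%). The GAS letters were present in 10 of the 30 (33.3%) and in 2582 of the 27025 (9.55%). In the 17 genes the ISRE core matched 26 times, of which 19 matches began within the 150 bases before the start. In *Isg15* 3 overlapping matches began 78, 72 and 66 bases before the start. In *Bst2* and *Ifitm3* a GAS match shared 3 bases with an ISRE match. *Irf1* held the GAS letters, 90 bases before the start, and not the ISRE core, and *Irf7* held neither within its window. A match is a description of letters, and binding of a factor was not measured.

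**Figure D1:**
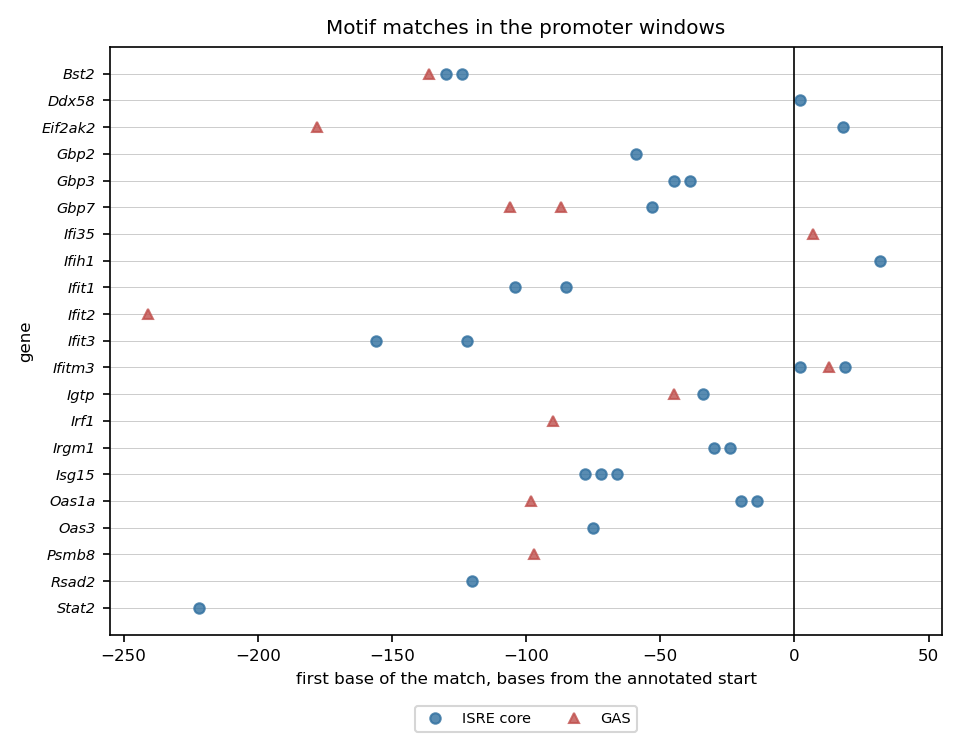
Positions of ISRE core (blue circles) and GAS (red triangles) matches in the promoter windows of the members that hold at least 1 of them. The x axis gives the first base of the match in bases from the annotated start, and most ISRE matches (19 of 26) lie within 150 bases before it.

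Expression is given as FPKM, fragment numbers scaled by transcript length and by the mapped fragments of the library, so that levels can be compared between genes. Totals over all genes lay between 585350 and 600028 FPKM in the 6 mice, and 16287 to 16619 genes had a value above 0. The read totals are not part of the values, so the depth is unknown. The test was limma-trend on log2(FPKM + 1) with Benjamini-Hochberg adjustment, over 13520 genes that reached 0.5 FPKM in 3 or more mice. Calls needed an adjusted p below 0.2 together with an OP/OR ratio of 1.2 or more, or of 0.83 or less. All 39 members passed the filter.

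Most interferon-stimulated genes had a lower fitted level in OP than in OR mice, but 0 of the 39 passed the test in either direction, and the difference rested largely on OP mouse 1. The fitted log2 fold change OP/OR was below 0 for 37 of the 39 members, with a median of -0.56. Over all genes tested 70.1% were below 0 and the median was -0.10. Without OP mouse 1, the members' median was -0.16 with 31 of 39 below 0. The median of all genes was then -0.01, with 7115 of 13520 below 0. Without OP mouse 2 the members' median was -0.86. In bulk tissue, fewer cells of a type and less RNA per cell cannot be told apart.

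Over all genes, 0 genes (0%) were called higher and 3 (0.0222%) lower in OP mice. At an unadjusted p below 0.05, 1 member was higher and 3 were lower in OP mice, and the shares of all genes were 0.503% and 3.53%. The member that was higher was *Irf1*, and the 3 that were lower were *Irf7*, *Ifitm3* and *Bst2*. In 4 members the values of the 3 OP mice lay wholly apart from those of the 3 OR mice, with *Irf1* higher and *Bst2*, *Ifi27* and *Ifitm3* lower in every OP mouse. Among all genes, 1.63% were higher and 6.81% lower without overlap, so the members' count of 4 in 39 was near the background. For these 4 genes the two-sided exact permutation p of the difference in means was 0.1, the smallest that 3 mice against 3 can give. The adjusted p of the 39 members (limma-trend, Benjamini-Hochberg) lay between 0.805 and 0.963. The count of 3 lower members depended on single mice: it was 20 without OP mouse 2, 0 without OR mouse 1 and 1 without OR mouse 2. The share of all genes at that level, in either direction, was 5.80%, 2.53% and 4.83% in these fits. Without OP mouse 1 the count of lower members was 2, *Bst2* and *Ifitm3*, where 2.29% of all genes were lower and 0.717% higher. *Irf1* was still the 1 member that was higher.

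OP mouse 1 held the lowest of the 6 values in 35 of the 39 members, and in 54.1% of all genes tested. Its distance from the mean of the other 5 mice on the log2(FPKM + 1) scale had a median of -1.34 over the members and -0.30 over all genes, and it was below -1 in 25 of 39 members and in 5.32% of all genes. In 20 members the value of OP mouse 1 was less than 50% of that of every other mouse. At the other end, OR mouse 2 held the highest value in 23 of 39 members and in 7.66% of all genes, and OP mouse 2 in 8 members. Averaged over the 39 members, the deviation from the 6-mouse mean was -1.03, 0.36 and -0.14 in OP mice 1, 2 and 3 and 0.24, 0.59 and -0.01 in OR mice 1, 2 and 3. OP mouse 2 thus lay above 2 of the 3 OR mice, and the groups overlapped. The median standard deviation within a group on this scale was 0.74 in OP and 0.30 in OR mice for the members, and 0.29 and 0.18 for all genes. Between OP mice 2 and 3 alone it was 0.35 for the members and 0.18 for all genes.

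**Figure D2:**
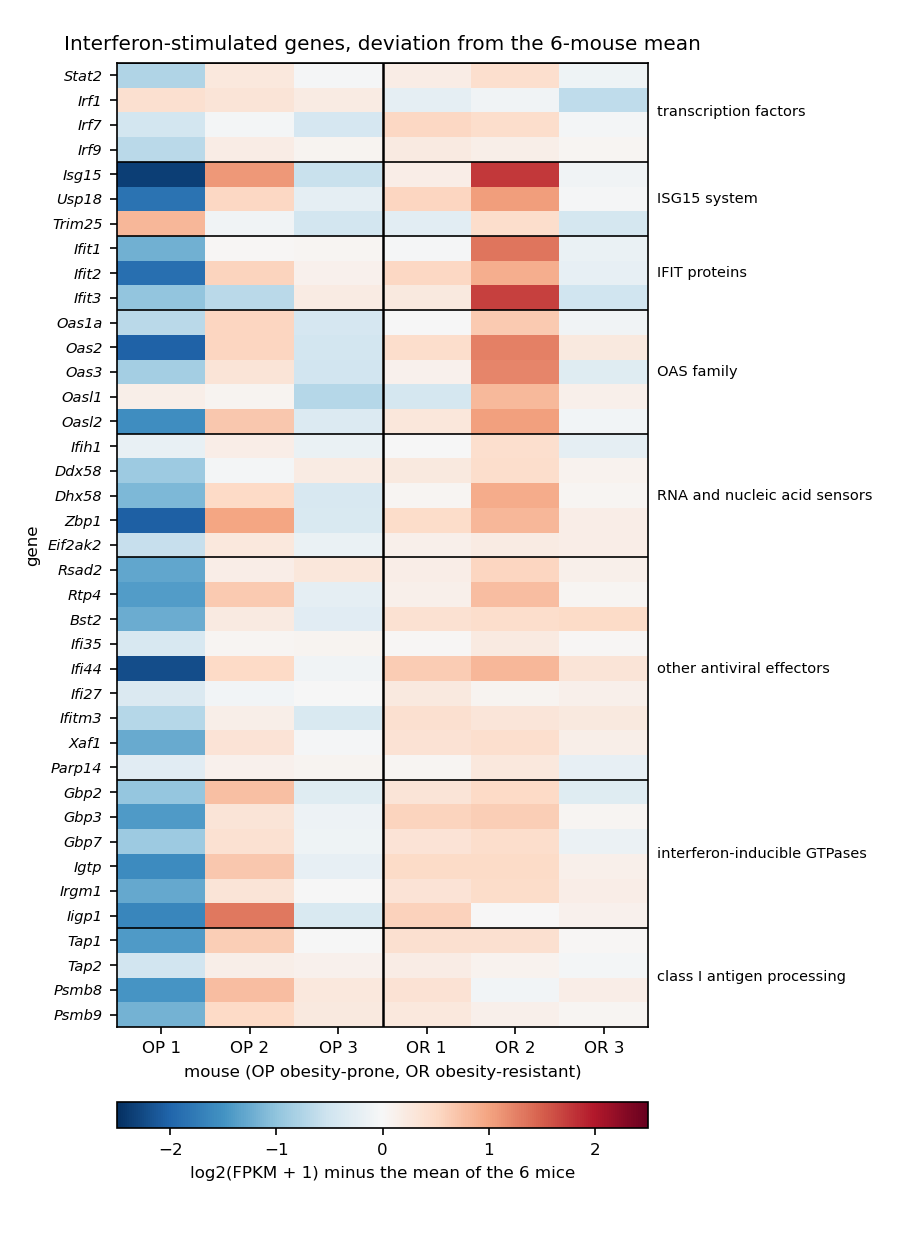
Deviation of each of the 39 genes from its mean over the 6 mice, on log2(FPKM + 1), with genes in rows by role and mice in columns. OP 1 is the lowest mouse in 35 genes, OR 2 is the highest in 23, and *Irf1* runs against the other genes, with all 3 OP mice above all 3 OR mice.

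The ligands and receptors of the pathway were examined first. Of 21 interferon genes listed, 2 had a row, *Ifng*, the type II interferon made by T and NK cells, and *Ifnz*, a member of the type I family. *Ifng* measured 0.08, 0.27 and 0.07 FPKM in OP mice 1, 2 and 3, and 0.27, 0.2 and 0.28 FPKM in OR mice 1, 2 and 3, and neither gene passed the filter. The other 19 interferon genes were not analysed here. All 6 receptor chains were expressed and 0 of them were called, and their median fitted difference was 0.03 on the log2 scale. The interferon gamma receptor chain *Ifngr1* had 171.6 ± 10.6 FPKM (SD, n = 3) in OP mice and 168.8 ± 12.4 FPKM (SD, n = 3) in OR mice. The type I receptor chain *Ifnar1* had 9.19 ± 0.932 FPKM (SD, n = 3) in OP mice and 9.53 ± 0.538 FPKM (SD, n = 3) in OR mice. OP mouse 1 was the lowest mouse in 1 of the 6 receptor genes, against 35 of the 39 members. Of 10 kinases and negative regulators and of 13 tested genes of nucleic acid sensing and interferon induction, 0 had an unadjusted p below 0.05, with median log2 fold changes of -0.02 and -0.08.

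The transcription factors of the programme held the 1 member that was higher in every OP mouse. *Irf1*, a factor induced directly by interferon gamma, measured 140.3, 132.63 and 123.14 FPKM in OP mice 1, 2 and 3, and 91.06, 99.86 and 68.05 FPKM in OR mice 1, 2 and 3. Every OP mouse was above every OR mouse, and OP mouse 1, the lowest mouse in most other members, was the highest here. The log2 fold change was 0.62 (SE 0.17), with an unadjusted p of 0.00626 and an adjusted p of 0.805 (limma-trend, Benjamini-Hochberg). It stayed between 0.46 and 0.74 with each mouse left out and was 0.76 after median-of-ratios scaling.

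*Irf7*, the factor that amplifies type I interferon production, had the highest mean level of the members (235.2 FPKM over the 6 mice, the 97.2th percentile of the genes tested). Its FPKM was 165.14, 220.18 and 170.07 in OP mice and 326.9, 309.86 and 219.14 in OR mice. OP mouse 2 was above OR mouse 3 by about 1 FPKM, and apart from this pair the groups were separate. The log2 fold change was -0.61 (SE 0.20), the unadjusted p 0.0159 and the adjusted p 0.945 (limma-trend, Benjamini-Hochberg), and without OP mouse 1 the log2 fold change was -0.54. The SD of *Irf7* was 30.5 FPKM in OP and 57.9 FPKM in OR mice.

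*Stat2* and *Irf9* encode the partners that carry the type I and type III signal to the ISRE. *Stat2* measured 9.23, 19.63 and 15.78 FPKM in OP mice and 18.52, 21.78 and 14.95 FPKM in OR mice. *Irf9* had 17.25, 32.39 and 29.69 in OP mice and 33.3, 31.24 and 29.28 in OR mice. In both genes OP mouse 1 stood alone below the other 5 mice, and without it the log2 fold changes were -0.05 and -0.01.

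The ISG15 system tags proteins with the ubiquitin-like modifier ISG15 and removes it again. *Isg15* measured 9.59, 113.61 and 35.84 FPKM in OP mice and 59.76, 184.68 and 49.99 FPKM in OR mice. The highest mouse was 19.3 times the lowest, OP mouse 2 was above 2 of the 3 OR mice, and the log2 fold change of -1.23 had an SE of 0.86. *Usp18*, the protease that removes ISG15 and dampens the type I receptor, had 0.9, 8.67 and 4.82 FPKM in OP mice and 8.8, 12.99 and 5.67 FPKM in OR mice. Both genes had the same highest and lowest mouse, OR mouse 2 and OP mouse 1.

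*Trim25*, a ubiquitin ligase that also conjugates ISG15 and activates RIG-I, did not follow them. It measured 111.11, 58.75 and 45.21 FPKM in OP mice and 51.59, 84.54 and 45.77 FPKM in OR mice. OP mouse 1 was the highest mouse and the other 5 overlapped. Its log2 fold change of 0.19 (SE 0.36) turned to -0.18 without OP mouse 1.

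Among the IFIT proteins, IFIT1 binds viral RNA that lacks the host cap methylation. *Ifit1* had 9.78, 24.45 and 24.58 FPKM in OP mice and 23.31, 61.61 and 21.01 FPKM in OR mice. *Ifit3* had 5.16, 6.66 and 13.02 FPKM in OP mice and 13.5, 39.08 and 7.66 FPKM in OR mice. In each of the 3 IFIT genes OP mouse 1 was lowest and OR mouse 2 highest, and in *Ifit1* and *Ifit3* the value of OR mouse 2 was more than 2 times that of any other mouse. *Ifit2* had 0.91, 9.41 and 6.66 FPKM in OP mice and 9.21, 12.22 and 5.16 FPKM in OR mice, and without OP mouse 1 its log2 fold change was -0.07. *Ifit3* has a near-identical copy, *Ifit3b* (1.72 to 7.8 FPKM), and reads shared by such copies may have been split between them. The lowest mouse of *Ifit3b* was OR mouse 3, not OP mouse 1. Its log2 fold change was -0.19, beside -0.98 for *Ifit3*.

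Active members of the OAS family make oligoadenylates that switch on RNase L. *Oas2* had the lowest log2 fold change of the 39 members, -1.30 (SE 0.61, unadjusted p 0.0698, adjusted p 0.945 by limma-trend with Benjamini-Hochberg adjustment). Its FPKM was 1.35, 12.83 and 5.91 in OP mice and 12, 21.68 and 10.28 in OR mice. OP mice 1 and 3 were below all OR mice, and OP mouse 2 was above 2 of them. Without OP mouse 1 the log2 fold change was -0.61 (SE 0.41).

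*Oas1a* had 47.04, 110.41 and 56.04 FPKM in OP mice and 75.18, 120.05 and 71.56 FPKM in OR mice. *Oasl2* had 24.28, 117.55 and 57.43 FPKM in OP mice and 89.04, 150.46 and 69.61 FPKM in OR mice. These genes, like *Oas3* (8.6 to 39.13 FPKM), shared 1 order of mice, with OR mouse 2 highest, followed by OP mouse 2 and OR mouse 1, and with OP mouse 1 lowest. *Oasl1* had 38.17, 36.24 and 20.6 FPKM in OP mice and 25.27, 61.67 and 37.97 FPKM in OR mice, and OP mouse 3 was its lowest mouse. OR mouse 2 was highest in all 5 genes of the family.

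The sensors detect viral nucleic acid in the cytosol. *Zbp1*, which binds Z-form nucleic acid and can trigger necroptosis, had 6.73, 61.85 and 23.46 FPKM in OP mice and 42.73, 55.53 and 34.99 FPKM in OR mice. OP mice thus held both the highest and the lowest value. *Ddx58*, which encodes RIG-I, had 4.17, 8.37 and 10.27 FPKM in OP mice and 10.59, 12.15 and 9.34 FPKM in OR mice. *Dhx58*, which encodes the regulator LGP2, ranged from 3.66 FPKM in OP mouse 1 to 18.23 FPKM in OR mouse 2. *Eif2ak2*, which encodes the kinase PKR, measured 9.85, 18.47 and 13.49 FPKM in OP mice and 16.72, 17.7 and 17.2 FPKM in OR mice. Here the OR mice lay close together and between OP mice 2 and 3. *Ifih1*, which encodes MDA5, measured 19.44, 24.82 and 19.54 FPKM in OP mice and 22.1, 29.87 and 18.94 FPKM in OR mice. It varied by less than 2 times between mice, and its log2 fold change of -0.13 was 0.003 after median-of-ratios scaling. All 5 sensors had a log2 fold change below 0, and *Ifih1* was the exception under that scaling.

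Among the other antiviral effectors, 3 of the 9 genes with a row were lower in every OP mouse than in every OR mouse, as were 6.81% of all genes tested. These 3 are also the only ones among the 39 members, 7.69% of them, a share near that background. *Ifitm3*, which blocks viral entry at the endosome, had 68.9, 124.96 and 86.99 FPKM in OP mice and 149.12, 139.67 and 135.19 FPKM in OR mice. *Bst2*, which tethers budding virus to the cell surface, had 13.75, 39.27 and 27.41 FPKM in OP mice and 44.3, 45.79 and 47.33 FPKM in OR mice. In both genes the OR mice lay close together and above every OP mouse, while the OP mice were spread, with SDs of 28.6 and 12.8 FPKM in OP against 7.11 and 1.52 FPKM in OR mice.

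The log2 fold change of *Bst2* was -0.87 (SE 0.33, unadjusted p 0.0337, adjusted p 0.945) and that of *Ifitm3* -0.63 (SE 0.21, unadjusted p 0.0195, adjusted p 0.945), both by limma-trend with Benjamini-Hochberg adjustment. Without OP mouse 1 these were -0.47 (SE 0.17) and -0.43 (SE 0.18). *Ifi27*, a mitochondrial and nuclear membrane protein, had 60.93, 75.44 and 78.32 FPKM in OP mice and 94.02, 82.75 and 86.83 FPKM in OR mice. Its groups did not overlap either, with a mean in OR mice 1.23 times that in OP mice.

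*Ifi44*, an interferon-induced protein with antiviral activity, had the widest range of the members. Its FPKM was 0.41, 8.25 and 5.13 in OP mice and 9.21, 10.71 and 7.23 in OR mice, and the highest mouse was 26.1 times the lowest. *Rtp4* had 9.98, 44.58 and 23.61 FPKM in OP mice and 30.73, 48.66 and 29.04 FPKM in OR mice, so that OP mouse 2 again lay among the OR mice. *Rsad2*, which encodes viperin, had 1.47 FPKM in OP mouse 1 and 5.65 to 7.8 FPKM in the other 5 mice. *Xaf1* had 2.57 FPKM in OP mouse 1 and 7.37 to 10.44 FPKM in the others. *Ifi35* (25.93 to 40.76 FPKM) and *Parp14* (17.67 to 26.32 FPKM) varied by less than 2 times between mice, and the log2 fold change of *Parp14*, -0.07, was 0.06 after median-of-ratios scaling.

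**Figure D3:**
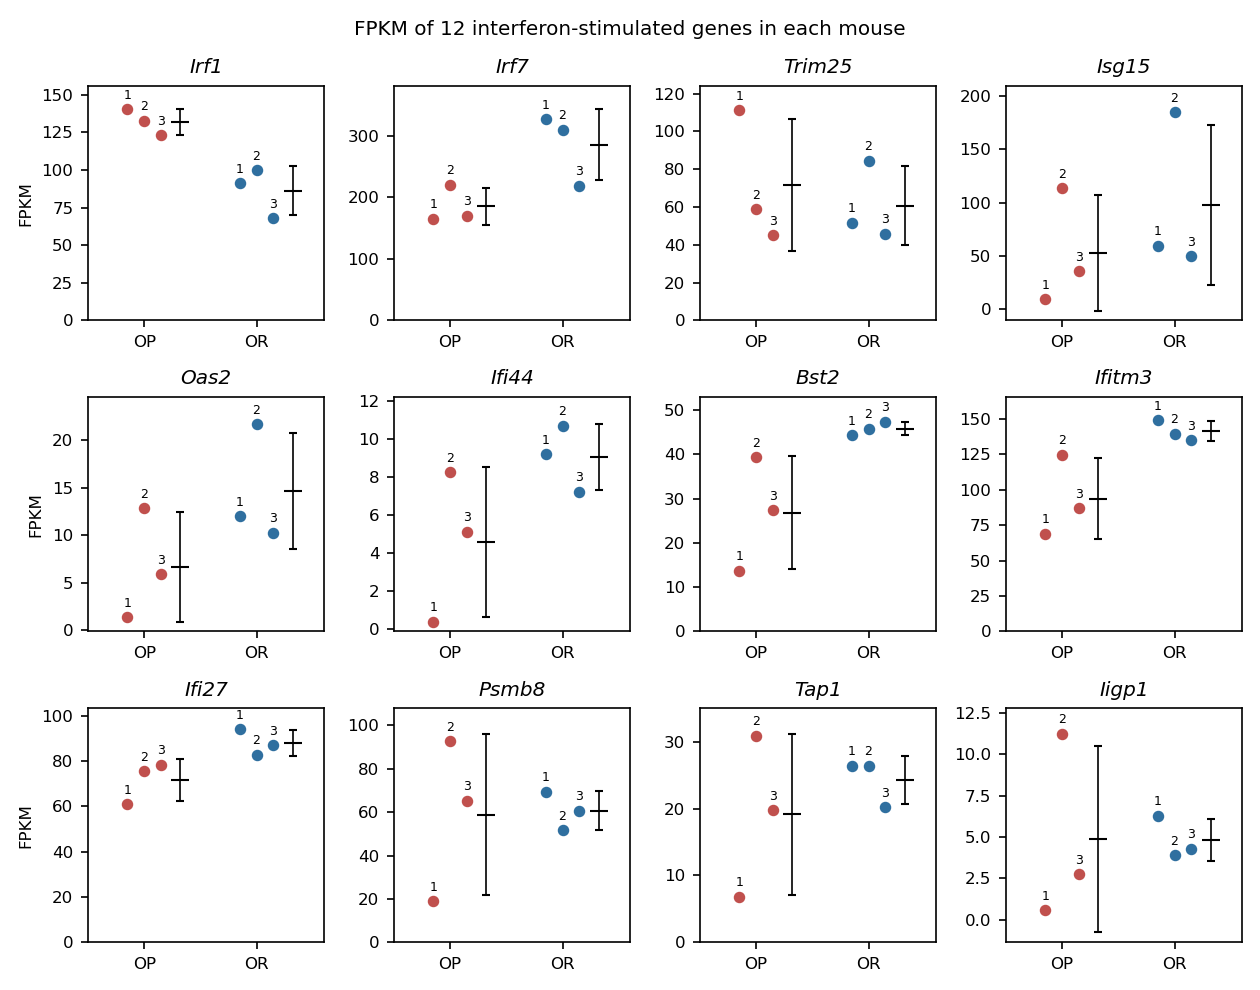
FPKM of 12 members in each mouse, with the replicate number beside each point (OP red, OR blue) and the group mean with SD in black (n = 3). OP 1 is the lowest mouse in all panels except *Irf1* and *Trim25*, where it is the highest, and OP 2 is at or above the OR mice in *Psmb8*, *Tap1* and *Iigp1*.

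The interferon-inducible GTPases assemble on vacuoles that hold intracellular pathogens and respond strongly to interferon gamma. *Irgm1*, the regulator of the family, had 15.52, 49.21 and 39.17 FPKM in OP mice and 50.04, 54.41 and 43.98 FPKM in OR mice. *Igtp* had 4.51, 25.23 and 13.21 FPKM in OP mice and 21.94, 21.87 and 16.97 FPKM in OR mice. *Gbp2* had 5.88, 21.62 and 9.87 FPKM in OP mice and 15.9, 17.97 and 9.85 FPKM in OR mice. OP mouse 1 was lowest in all 6 GTPases, and OP mouse 2 was highest in *Igtp*, *Gbp2* and *Iigp1*.

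*Iigp1* had 0.59, 11.25 and 2.76 FPKM in OP mice and 6.28, 3.92 and 4.29 FPKM in OR mice. Its means were alike, 4.87 ± 5.63 FPKM (SD, n = 3) in OP mice and 4.83 ± 1.27 FPKM (SD, n = 3) in OR mice, with a spread in OP mice wider than the mean. *Gbp3* (1.55 to 9.39 FPKM) and *Gbp7* (1.16 to 4.5 FPKM), like *Irgm1*, were lowest in OP mouse 1 and highest in OR mouse 2. Without OP mouse 1, the log2 fold change was above 0 in *Gbp2* (0.05) and *Iigp1* (0.24) and below 0 in the other 4 GTPases.

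The class I antigen processing genes encode the peptide transporter TAP and the inducible proteasome subunits. *Psmb8* had 18.91, 92.55 and 65.19 FPKM in OP mice and 69.49, 51.58 and 60.71 FPKM in OR mice. *Psmb9* had 18.97, 63.14 and 52.24 FPKM in OP mice and 53.51, 48.45 and 45.54 FPKM in OR mice. *Tap1* had 6.83, 30.89 and 19.78 FPKM in OP mice and 26.43, 26.37 and 20.18 FPKM in OR mice. OP mouse 1 was lowest in all 4 genes, OP mouse 2 was highest in these 3, and OR mouse 2 was the highest mouse in none of the 4.

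All 4 genes had a log2 fold change below 0 with 6 mice, from -0.54 (*Tap1*) to -0.16 (*Tap2*), and above 0 without OP mouse 1, from 0.03 (*Tap1*) to 0.36 (*Psmb8*). *Tap2* measured 22.12, 34.54 and 33.65 FPKM in OP mice and 35.72, 33.35 and 30.3 FPKM in OR mice, so that 5 of the 6 mice lay close together above OP mouse 1. The partners of this machinery, 19 genes that include MHC class I heavy chains, had a median log2 fold change of -0.12 and 0 with an unadjusted p below 0.05. *B2m*, the light chain, had 821.0 FPKM in OP mouse 1 and 1182 to 1498 FPKM in the other 5 mice.

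**Figure D4:**
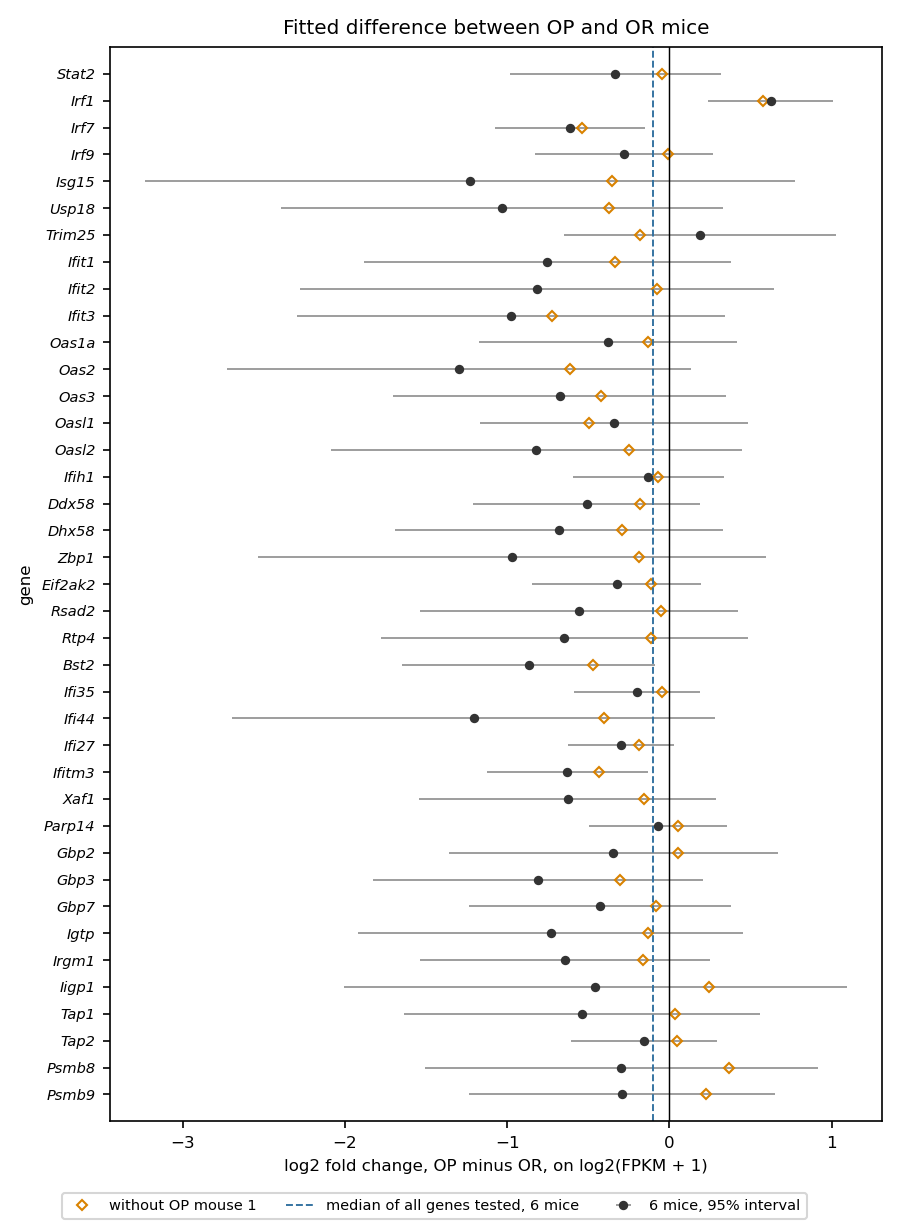
Fitted log2 fold change OP minus OR of each member with its 95% interval (black, n = 3 and 3) and the value without OP mouse 1 (orange diamonds, no interval drawn); the dashed line is the median of all genes tested, -0.10. The interval includes 0 for 35 of the 39 genes, and the diamonds of the 4 class I antigen processing genes lie above 0.

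The precision of these differences was low. The median SE of the members' log2 fold changes was 0.40, and the 95% interval included 0 for 35 of the 39. For 29 of the 39 the lower bound of the interval was below -1, so a level in OP mice of less than 50% of that in OR mice lies within the interval.

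The other genes of the programme were taken from a list of 68 interferon-induced genes outside the members, of which 62 were tested. Of these 62, 54 had a log2 fold change below 0, with a median of -0.31. Over all genes 70.1% were below 0, with a median of -0.10. Without OP mouse 1 the values for this list were 36 of 62 and -0.05. Over all genes they were then 7115 of 13520 and -0.01. At an unadjusted p below 0.05, 8 of the 62 (12.9%) were lower and 0 higher in OP mice, against 3.53% and 0.503% of all genes, and 0 were called. The groups did not overlap in 9 (14.5%), all lower in OP mice, against 6.81% of all genes. The 3 genes with the smallest p were *Ifi207*, *Ifi27l2a* and *Ifi204*.

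*Ifi204*, a DNA-binding protein of the HIN-200 family, had 0.7, 1.15 and 1.76 FPKM in OP mice and 3.48, 5.96 and 2.71 FPKM in OR mice. *Ifi27l2a*, a relative of *Ifi27*, had 31.43, 43.78 and 42.79 FPKM in OP mice and 127.68, 57.84 and 92.39 FPKM in OR mice. *Ifi207*, also of the HIN-200 family, had at most 0.35 FPKM in OP mice and at least 0.86 FPKM in OR mice. The log2 fold changes without OP mouse 1 were -1.01 for *Ifi27l2a* and -0.70 for *Ifi207*, beside -1.16 and -0.69 with all mice; for *Ifi204* it was -1.17 with all mice, and the adjusted p was 0.798 for each of the 3 genes (limma-trend, Benjamini-Hochberg).

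Marker genes of the cell types in colon differed between the same mice. The 8 T cell markers summed to 9.91, 17.72 and 36.95 FPKM in OP mice 1, 2 and 3 and to 29.26, 27.4 and 31.73 FPKM in OR mice 1, 2 and 3. The 7 NK and cytotoxic cell markers summed to 11.06, 20.57 and 53.7 FPKM in OP mice and to 48.52, 37.93 and 62.58 FPKM in OR mice. Both sums were lowest in OP mouse 1, the lowest mouse of the members. They were second lowest in OP mouse 2, which was high in the members. *Gzma*, *Gzmb* and *Nkg7* made up most of the NK and cytotoxic cell sums, and only these 3 of the 7 passed the filter. OP mouse 1 was the lowest mouse in 5 of the 7.

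The 10 macrophage and monocyte markers summed to 58.83 to 136.3 FPKM in OP mice and 131.1 to 159.9 FPKM in OR mice, and 6 of the 10 were lower in every OP mouse than in every OR mouse, against 6.81% of all genes. Among them, *C1qa* had 10.69 to 29.52 FPKM in OP mice and 29.93 to 46.21 FPKM in OR mice. Of all 10, 9 had a log2 fold change below 0, and *Mertk* was the exception at 0.40. Of the blood endothelium and the fibroblast markers, 5 of 8 each did not overlap, again with OP mice lower and against the same 6.81% of all genes. The 7 colon epithelium markers, which include the carbonic anhydrase *Car1* and the mucin *Muc2*, summed to 4188 to 17052 FPKM, and the 2 highest sums were those of OP mouse 1 and OR mouse 2, the lowest and the highest mouse of the members. *Car1* alone reached 14584 FPKM in OP mouse 1 and 15723 FPKM in OR mouse 2, and so made up most of these 2 sums. On the mean deviation from the 6-mouse mean, log2(FPKM + 1), this list was highest in OP mouse 2 (0.78). OR mouse 2 (0.46) and OP mouse 1 (0.18) followed. *Muc2* was 17.59 FPKM in OP mouse 1 and 154.44 to 933.17 FPKM in the others. No marker of these lists was at 0 in all 6 mice. The part of these differences in tissue makeup in the values of the interferon-stimulated genes was not tested.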

How the data were processed

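Colon mRNA of 3 OP and 3 OR mice was sequenced as strand-specific libraries on the DNBSEQ platform. The authors filtered reads with SOAPnuke, aligned them with Bowtie2 to a mouse gene set and quantified genes with RSEM; the labels and the methods differ in the versions and in the gene set, and the processing notes also name HISAT2 2.0.4. The deposited values are FPKM, rounded to 2 decimals, for 17778 genes and 1 column per mouse. The counts behind them were not used here, so depth is unknown.

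Samples were grouped by their labels. Values of 13520 genes that reached 0.5 FPKM in 3 or more mice were taken to log2 with a pseudocount of 1, and limma-trend tested OP against OR without covariates (limma 3.58.1, R 4.3.3), with Benjamini-Hochberg adjustment over all genes. The pseudocount shrinks the fold changes of genes at low FPKM. DESeq2, the authors' tool, needs counts and was not run. The fit was tested on simulated data with 200 changed genes, called at an adjusted p below 0.2. It recovered 60.5% of genes with a log2 change of 1 and 93% of those with a change of 2. False calls made up 20.9% and 22.2% of the calls. Single genes were compared with exact permutation tests (20 arrangements). Replicates are separate mice.

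The members, the role, pathway and marker lists and the alternatives were chosen with earlier results of these data known. Genes were named with all 6 values if they had an unadjusted p below 0.05, did not overlap between groups, were among the 3 highest of their role or had 1 of the 3 largest fold changes. *Stat2*, *Ddx58*, *Rtp4*, *Iigp1* and *Tap1* were given with all 6 values outside this rule and after their values were seen. Named in the same way were *Ifng*, *Ifnz*, *Ifngr1*, *Ifnar1*, *Ifit3b*, *B2m*, *C1qa*, *Mertk*, *Gzma*, *Gzmb*, *Nkg7*, *Car1* and *Muc2*. Promoter windows were matched by symbol from RefSeq (GRCm38.p6).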

Additional observations from a re-analysis of the deposited data

How the results depend on the processing

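Precision is limited by 3 mice a group, 1 of which stood apart, and the depth is unknown. The alternatives were a pseudocount of 0.1, TPM rescaling, scaling by median-of-ratios, limma with no trend, a filter of 1 FPKM in all 6 mice (35 members left), any gene above 0 in 1 mouse, sample weights, a replicate block, no threshold on the fold change, and leaving out each mouse. Under all of these 0 members were called in either direction, and *Irf1* was the 1 member higher at an unadjusted p below 0.05. The lowest adjusted p of a member was 0.421 (limma, without OP replicate 3). The count of 3 members lower at an unadjusted p below 0.05 was 1 with sample weights and ranged from 0 to 20 with each mouse left out. Of all genes, 5.93% reached that level in either direction with sample weights, and 1.89% to 9.50% with each mouse left out. The median log2 fold change of -0.56 went from -0.86 to -0.16 as single mice were left out, and from -0.64 to -0.21 under the other alternatives, the last with sample weights, where OP mouse 1 had the lowest weight, 0.332. Median-of-ratios scaling moved the median of all genes from -0.10 to 0.01 and that of the members to -0.46.

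With the replicate block, the paired fit, 11 members were lower at an unadjusted p below 0.05 and 0 were called. In that fit 3.51% of all genes reached an unadjusted p below 0.05 in either direction. Mice that share a number are separate animals. The correlations of their deviations from the group means were -0.14, -0.16 and 0.07, and those of mice with unlike numbers ran from -0.46 to 0.54. Deviations from a group mean depend on each other, so these correlations cannot decide whether the numbers pair the mice. No mouse was closest to the mouse with its own number.

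Of 542 log2 fold changes of single members under the alternatives, 18 changed sign and 0 crossed the threshold. With median-of-ratios scaling *Ifih1* was 0.0025 and *Parp14* 0.062. With sample weights *Ifih1* was 0.033, *Gbp2* 0.11, *Iigp1* 0.13, *Psmb8* 0.094, *Psmb9* 0.033 and *Parp14* 0.063. With each mouse left out, *Ifih1* ranged from -0.27 to 0.044, *Gbp2* from -0.81 to 0.050, *Iigp1* from -1.23 to 0.24, *Tap1* from -0.98 to 0.034, *Tap2* from -0.27 to 0.043, *Psmb8* from -0.75 to 0.36, *Psmb9* from -0.62 to 0.22, *Parp14* from -0.19 to 0.055 and *Trim25* from -0.18 to 0.46. The sign changed without OP replicate 1, except for *Ifih1*, where it changed without OR replicate 2, and *Parp14*, where it changed without either, and the cause was not tested.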
